A study of Mus musculus with 13 samples.

Results

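The genes described here encode the proteins of the mitochondrial ribosome, and they were measured in alveolar macrophages, the phagocytic cells that live in the air spaces of the lung. They were picked by name: every gene of the count table whose mouse symbol is Mrpl or Mrps followed by a number was taken. Pseudogenes were left out. The set was chosen with earlier results of these data known. The rule gave 77 of the 43430 genes in the table, 48 with an Mrpl and 29 with an Mrps symbol. Of these, 76 had enough reads to be tested. The cells had been sorted from lungs of C57Bl/6 males at 10 weeks of age, with 3 or 4 biological replicates in each of 4 groups. Metformin PM mice (n = 3) drank metformin, a biguanide used in type 2 diabetes, at 100 mg/kg/day from 24 h before they were given 10 µg of urban particulate matter (PM) into the airways. Metformin PBS mice (n = 3) drank metformin and received phosphate-buffered saline (PBS), Vehicle PM mice (n = 3) drank vehicle and received PM, and Vehicle PBS mice (n = 4) drank vehicle and received PBS. Cells were taken 24 h after instillation in all groups.

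Mitochondria carry their own small genome, and the few proteins it encodes are core subunits of the respiratory chain. They are made inside the organelle by a dedicated ribosome, whose RNAs come from the mitochondrial genome and whose proteins are all encoded in the nucleus, translated in the cytosol and imported. The particle has a small subunit, which binds the mRNA and decodes it, and a large subunit, which joins the amino acids and releases the chain towards the inner membrane. Many of its proteins descend from those of bacterial ribosomes and others were added in mitochondria. Metformin is known to act on mitochondrial respiration, among other targets.

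By function, 50 of the 77 genes encode large-subunit proteins and 26 small-subunit proteins. The large-subunit count includes Mrps30 and Mrps18a, whose products sit in the large subunit in spite of their symbols. The 1 gene in neither group was Mrps36, whose product (also called KGD4) is known as a part of the 2-oxoglutarate dehydrogenase complex of the citric acid cycle. On the list used here 45 genes have a counterpart in bacteria, and the other 32 are called mitochondrion-specific. These 32 also hold Mrps36, and the paralogues Mrps18a and Mrps18b, which descend from a bacterial protein. The genes lie on 17 chromosomes, with 11 on chromosome 11, so they do not form a cluster. The 5 named pseudogenes that were left out had together 3 counts, all of them in Mrpl23-ps1.

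Libraries held 5.567 to 8.101 megacounts (M). Alveolar macrophage markers summed to 24670 to 30620 CPM (counts per megacount) over the 13 libraries. Of 6 neutrophil genes, Ly6g and Retnlg were at 0 in all libraries, and the 6 together summed to 53.96 to 76.3 CPM. Mmp8 of that list fell with metformin after PBS (log2 fold change −0.67). It rose with PM on metformin (0.43), which was lost in 14 of 22 other settings. Of 6 lymphocyte genes, only Igkc had enough reads to be tested. The 6 together summed to 0.62 to 5.59 CPM over the 13 libraries. Igkc rose with PM on vehicle (2.53) and on metformin (2.94), calls lost in 4 and in 2 of 22 other settings. Of epithelial genes, Sftpc rose (1.23) and Epcam fell (−0.42) with PM on metformin. Single markers of the alveolar macrophage moved in both directions: of the 12 tested, 3 rose and 3 fell with PM on vehicle, and 5 rose and 3 fell on metformin. On vehicle these included Car4 (log2 fold change 1.11), Marco (0.62) and Ear1 (−0.56), which on metformin were at 1.02, 1.44 and −0.47. The call of Marco on vehicle was lost in 4 of 22 other settings. Marco was also lower in Metformin PBS than in Vehicle PBS libraries (−1.11), and these Metformin PBS values enter the 1.44. The PM groups differed from the PBS groups in markers of monocytes and monocyte-derived macrophages. Of 9 such genes, 7 were tested. Of these, 5 rose and 0 fell with PM on vehicle, and 4 rose and 0 fell on metformin. Over all genes tested, 2.6% rose and 2.26% fell with PM on vehicle, and 7.18% rose and 5.6% fell on metformin. The 9 genes summed to 1204 to 1248 CPM in Metformin PM and 945 to 1039 CPM in Metformin PBS libraries. The sum was 1096 to 1232 CPM in Vehicle PM and 881 to 975 CPM in Vehicle PBS libraries. In these bulk samples, fewer cells of a type and less RNA per cell cannot be told apart, and the part of these cells in the results below was not tested.

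All 76 genes that were tested were read at a similar, moderate depth. A gene had between 38 and 466 counts in a single library, and the mean per library ranged over the genes from 63.4 to 339 counts with a median of 149. Together they took 0.177 to 0.196% of the counts of a library. Mrpl53, a mitochondrion-specific large-subunit gene, had 14 counts over all 13 libraries and was not tested. Its exons share 418 bases with the gene Gm42688 on the same strand, and reads from such a stretch cannot be given to either gene.

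Levels were compared between genes per kilobase of transcript (CPM per kilobase). The median over the 76 genes was 16.9 CPM per kilobase, against 264 for cytosolic ribosomal proteins and 593 for mRNAs encoded in the mitochondrial genome. Genes whose products assemble the mitochondrial ribosome had a median of 5.73, mitochondrial translation factors 8.04 and mitochondrial aminoacyl-tRNA synthetases, which charge its tRNAs, 5.20 CPM per kilobase. Within the set, large-subunit genes had a median of 17.9 and small-subunit genes of 12.4 CPM per kilobase. Genes with a bacterial counterpart had a median of 18.7 and mitochondrion-specific genes of 13.1 CPM per kilobase. All these medians rest on the transcript length taken for each gene. Other lengths were not tried for them, so the differences between these sets of genes may depend on that choice.

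The highest levels were those of Mrps21 (70.6 ± 5.71 CPM per kilobase, SD over 13 libraries) and Mrps15 (49.0 ± 3.12), both small-subunit genes with a bacterial counterpart. The mitochondrion-specific large-subunit gene Mrpl42 (41.5 ± 3.80), the small-subunit gene Mrps6 (40.2 ± 5.22) and the large-subunit gene Mrpl52 (38.7 ± 6.42) came next. The lowest were Mrpl32 (5.23 ± 0.42), Mrpl35 (4.64 ± 0.45) and Mrpl19 (4.31 ± 0.56) of the large subunit, and Mrps5 (4.20 ± 0.34) and Mrps35 (3.42 ± 0.33) of the small subunit. Between neighbours in this order, the ranges of mean ± 1 SD overlapped for 71 of the 75 adjacent pairs, and the exceptions were Mrps21 and Mrps15, Mrps15 and Mrpl42, Mrpl24 and Mrpl4, and Mrps5 and Mrps35. The order rests on the transcript length taken for each gene. With the length of all merged exons 3 of the 10 highest genes stayed among the 10 highest, and 5 did with the length deposited beside the counts.

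**Figure D1:**
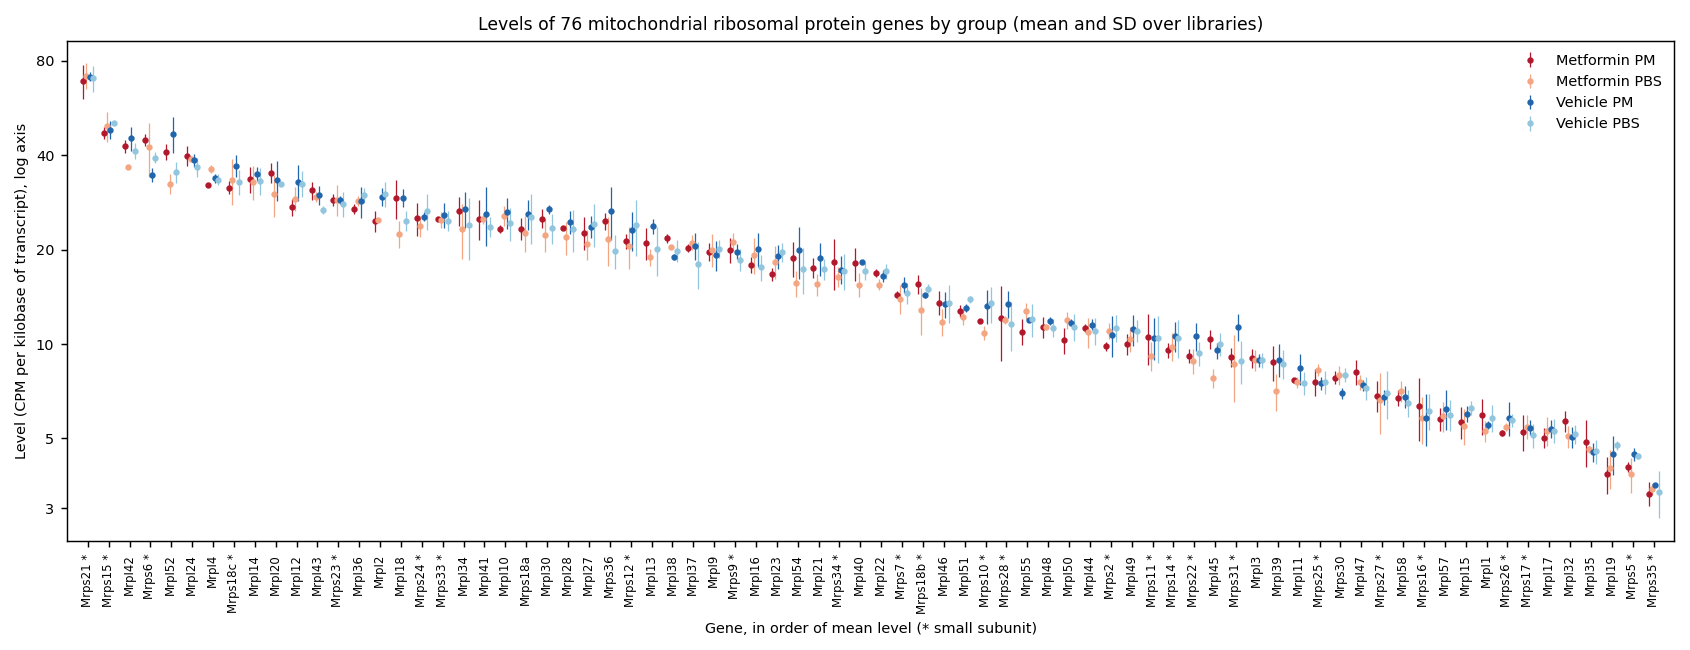
Level of each of the 76 genes (CPM per kilobase of transcript, log axis) in the 4 groups, ordered by the mean over all libraries; points are group means, bars are the SD over 3 or 4 libraries, and a star marks small-subunit genes. Levels span 3.42 to 70.6 CPM per kilobase between genes, while the 4 groups of a gene lie close together.

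Differences between libraries were small beside the differences between genes. The highest library of a gene stood above its lowest by a factor of 1.18 (Mrpl22) to 1.92 (Mrps36), with a median of 1.41. This factor was below 1.5 for 55 and below 2 for all 76 genes. The widest after Mrps36 were Mrps28 (1.81), Mrps12 (1.81) and Mrpl52 (1.80), and the narrowest after Mrpl22 was Mrpl4 (1.19).

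Summed over the set, the groups overlapped. The sum was 1866 ± 11.9 CPM in Metformin PM and 1801 ± 82.9 CPM in Metformin PBS libraries (SD, n = 3 each). It was 1925 ± 65.8 CPM in Vehicle PM (SD, n = 3) and 1848 ± 59.0 CPM in Vehicle PBS libraries (SD, n = 4). On the log2 scale, the median over the 76 genes relative to the Vehicle PBS mean lay between −0.01 and 0.03 in Metformin PM libraries. It lay between −0.08 and 0.03 in Metformin PBS, between 0.00 and 0.10 in Vehicle PM and between −0.04 and 0.07 in Vehicle PBS libraries. The range of each group overlapped that of every other group.

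**Figure D2:**
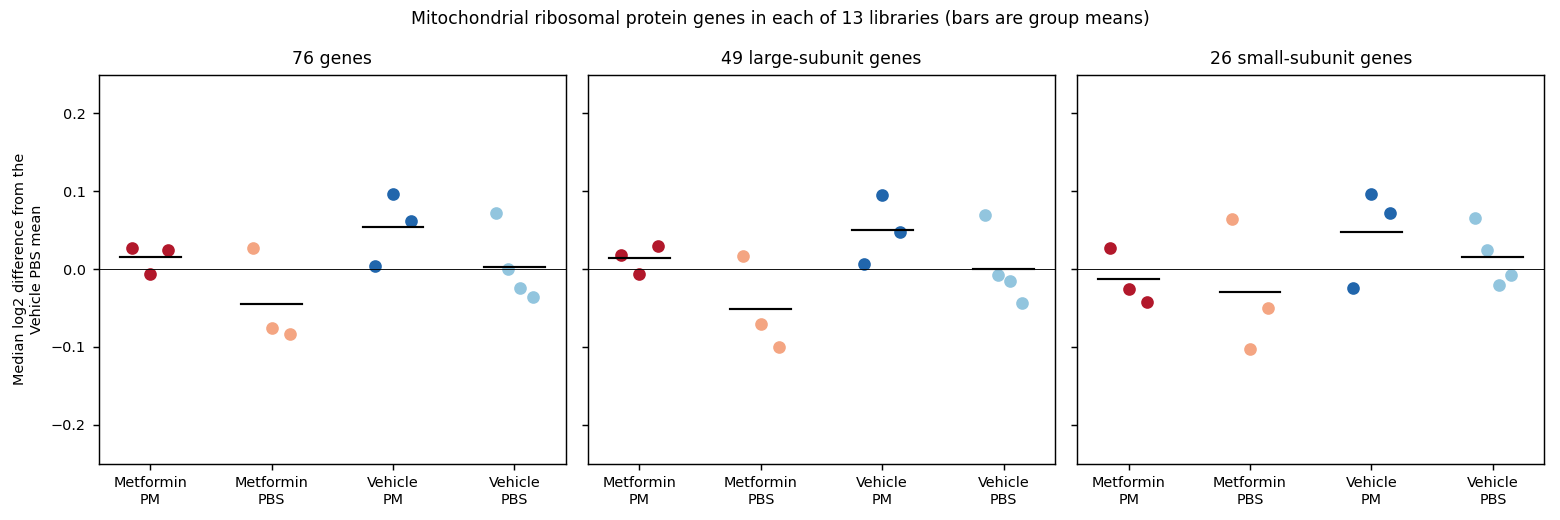
Median log2 difference from the Vehicle PBS mean in each library, for all 76 genes, for the 49 large-subunit genes and for the 26 small-subunit genes; points are libraries and bars are group means. In all 3 panels every library lies between −0.103 and 0.0971 and the 4 groups overlap.

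The comparison of PM with PBS in mice on vehicle asks what the particles alone did to these genes. Genes were tested with edgeR's quasi-likelihood test, and one with a Benjamini-Hochberg adjusted p under 0.05, adjusted over all 11906 genes tested, is said to be called. Mrpl52 rose and no other member was called, which is 1.32% of 76 genes beside 4.85% of all genes tested (2.6% higher and 2.26% lower). DESeq2 called 0 and limma-voom 1 of the members, and at an unadjusted p under 0.05 edgeR had 6 higher and 0 lower (7.89% of members beside 16.7% of all genes). The log2 fold change was above 0 for 53 genes and below 0 for 23, with a median of 0.04 beside 0.00 over all genes tested. The medians were 0.06 over 49 large-subunit and 0.03 over 26 small-subunit genes. No overlap between the groups was seen for 3 genes that lay higher with PM, Mrpl52, Mrpl43 and Mrpl40, where 7.33% of all genes did so, and for 2 that lay lower, Mrps30 and Mrps6, where 7.6% did.

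Mrpl52, a mitochondrion-specific protein of the large subunit (ENSMUSG00000010406; GRCm38 chromosome 14, 54426909 to 54429750, plus strand), had 17.5, 22.7 and 19.0 CPM in Vehicle PM libraries, against 15.7, 15.8, 13.6 and 13.9 CPM in Vehicle PBS libraries. All PM libraries were above all PBS libraries, and replicate 2 was the highest. The log2 fold change was 0.42 ± 0.11 (SE; edgeR quasi-likelihood adjusted p = 0.0382). In mice on metformin, Mrpl52 had 16.5, 16.8 and 18.5 CPM in Metformin PM libraries, against 14.9, 12.6 and 13.1 CPM in Metformin PBS libraries. Here too the groups did not overlap, but the difference of 0.35 ± 0.12 was not called (edgeR adjusted p = 0.0724). The call on vehicle was lost in 9 of 22 other settings. Among these were DESeq2 (0.42; adjusted p = 0.0924), edgeR with only the groups compared (0.42; adjusted p = 0.0716), and leaving out any 1 of 6 libraries: Metformin PM replicate 3, Vehicle PM replicates 2 and 3, and Vehicle PBS replicates 2, 3 and 4. The lowest value was 0.30 without Vehicle PM replicate 2 (edgeR adjusted p = 0.262).

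The next gene on the same strand is Mmp14, a membrane-bound matrix metalloproteinase, which starts 1854 bases after the end of Mrpl52. It had 7.91, 18.0 and 10.9 CPM in Vehicle PM libraries, against 0.950, 0.470, 0.159 and 0.179 CPM in Vehicle PBS libraries, a log2 fold change of 4.71 ± 0.40. On metformin the log2 fold change of Mmp14 was 4.42 ± 0.40. Mmp14 was highest in Vehicle PM replicate 2, the library in which Mrpl52 was highest too. The order differed within Metformin PM, where replicate 4 had the highest Mrpl52 (18.5 CPM) and the lowest Mmp14 (12.3 CPM) of the group. Reads that run past the end of Mrpl52 cannot be seen in a table of counts, and the part of the neighbour in the value of Mrpl52 was not tested.

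The promoter window of Mrpl52 is shown because it is the gene called on vehicle. It covers 250 bases before to 50 bases after the start of the RefSeq gene (GRCm38.p6, chr14:54426659-54426958, plus strand) and holds the ETS core CGGAAG, in capitals, 3 times in its reverse form CTTCCG:
Mrpl52: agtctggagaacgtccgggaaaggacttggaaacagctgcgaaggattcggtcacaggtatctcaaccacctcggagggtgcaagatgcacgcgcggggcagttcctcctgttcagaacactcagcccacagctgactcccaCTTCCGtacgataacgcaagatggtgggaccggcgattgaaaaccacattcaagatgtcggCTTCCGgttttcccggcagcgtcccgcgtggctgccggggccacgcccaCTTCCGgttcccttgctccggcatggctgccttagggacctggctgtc
ETS proteins such as GABP are known activators of nuclear genes for mitochondrial proteins.

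The same comparison in mice on metformin gave 2 called members, Mrpl45 and Mrpl18, both higher and both of the large subunit. They are 2.63% of the 76 genes, beside 12.8% of all genes tested (7.18% higher and 5.6% lower). DESeq2 and limma-voom called 2 members each, and at an unadjusted p under 0.05 edgeR had 8 higher and 1 lower (11.8% beside 26.0% of all genes). The median log2 fold change was 0.06, beside 0.00 over all genes tested, with 50 genes above and 26 below 0. The large-subunit and the small-subunit genes both had a median of 0.06. Groups did not overlap for 7 genes that lay higher and for 1 that lay lower with PM, beside 16.1% and 13.9% of all genes.

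Mrpl45, a mitochondrion-specific protein near the mouth of the exit tunnel that helps to hold the ribosome at the inner membrane (ENSMUSG00000018882; GRCm38 chromosome 11, 97315716 to 97329920, plus strand), had 26.1, 23.3 and 26.8 CPM in Metformin PM libraries. The Metformin PBS libraries had 18.8, 20.1 and 17.6 CPM, and the groups did not overlap. The log2 fold change was 0.43 ± 0.10 (SE; edgeR quasi-likelihood adjusted p = 0.00851), and without Metformin PBS replicate 4 it was 0.38 and not called (adjusted p = 0.0518). On vehicle, Mrpl45 had 24.2, 21.9 and 24.1 CPM in Vehicle PM libraries, against 24.5, 24.8, 21.5 and 26.3 CPM in Vehicle PBS libraries. These overlapped, with a log2 fold change of −0.05 ± 0.09. The 3 Metformin PBS libraries were thus below the 10 other libraries, as was so for 3 of the 76 members (Mrpl45, Mrpl42 and Mrps10) and 2.64% of all genes tested.

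The difference between the PM effects on metformin and on vehicle was 0.48 ± 0.14 for Mrpl45 and was not called (edgeR adjusted p = 0.106, unadjusted p = 0.00271). No other tested gene lay within 5 kb of Mrpl45. Its promoter window (GRCm38.p6, chr11:97315466-97315765, plus strand) holds the core TGCGCA of the site of NRF1, a known activator of nuclear genes for mitochondrial proteins, 2 times, in capitals:
Mrpl45: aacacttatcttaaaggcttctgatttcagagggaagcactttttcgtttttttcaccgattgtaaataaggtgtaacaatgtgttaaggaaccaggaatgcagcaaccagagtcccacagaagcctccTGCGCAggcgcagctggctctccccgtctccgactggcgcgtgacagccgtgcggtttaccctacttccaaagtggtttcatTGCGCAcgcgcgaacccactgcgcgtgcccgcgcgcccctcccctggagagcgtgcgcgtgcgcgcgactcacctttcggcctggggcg
The core reads the same on both strands.

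Mrpl18, whose bacterial counterpart binds the smallest ribosomal RNA (ENSMUSG00000057388; GRCm38 chromosome 17, 12911349 to 12916345, minus strand), had 39.6, 37.7 and 30.2 CPM in Metformin PM libraries, against 30.6, 26.1 and 24.95 CPM in Metformin PBS libraries. The lowest PM library lay just below the highest PBS library. The log2 fold change was 0.41 ± 0.11 (SE; edgeR quasi-likelihood adjusted p = 0.0178), and the call was lost without Metformin PM replicate 1 (0.32) or 3 (0.36) or Metformin PBS replicate 3 (0.37) or 4 (0.34). On vehicle, Mrpl18 had 33.1, 37.6 and 37.2 CPM in Vehicle PM libraries, against 33.2, 29.9, 29.02 and 28.1 CPM in Vehicle PBS libraries. That difference of 0.26 ± 0.10 was not called (edgeR adjusted p = 0.189), and the difference between both PM effects was 0.15 ± 0.15.

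Mrpl18 and Tcp1, which encodes a subunit of the cytosolic chaperonin, are transcribed away from each other, in RefSeq from starts 238 bases apart. In the GENCODE M21 models, which have other starts, 124 bases of their exons overlap on opposite strands. The library kit keeps no strand, so reads from that overlap cannot be told apart. Tcp1 had 190, 212 and 191 CPM in Metformin PM libraries, against 184, 160 and 169 CPM in Metformin PBS libraries. It rose as well, by a smaller log2 fold change of 0.21 ± 0.06 (edgeR adjusted p = 0.0271). The windows of both genes share 263 bases, and the window of Mrpl18 (GRCm38.p6, chr17:12916042-12916341, minus strand) holds the ETS core CGGAAG 2 times, in capitals:
Mrpl18: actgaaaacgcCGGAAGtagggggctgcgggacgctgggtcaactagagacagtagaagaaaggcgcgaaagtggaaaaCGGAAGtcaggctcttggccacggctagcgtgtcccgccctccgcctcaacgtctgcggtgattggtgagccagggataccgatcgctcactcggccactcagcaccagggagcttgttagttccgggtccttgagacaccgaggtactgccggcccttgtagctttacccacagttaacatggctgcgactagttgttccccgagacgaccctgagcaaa
Both matches lie in the stretch before the start, at −239 and −171.

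Further members with low p values in the PM comparisons were not called. On vehicle these were Mrps36 (0.44 ± 0.15; edgeR adjusted p = 0.109), the small-subunit gene Mrps31 (0.37 ± 0.14), Mrpl18 and the large-subunit gene Mrpl43 (0.17 ± 0.08). Mrps36 had 15.7, 23.01 and 17.7 CPM in Vehicle PM libraries, against 14.7, 15.8, 11.96 and 12.9 CPM in Vehicle PBS libraries, which overlap by 1 library. The 3 pseudogenes named after Mrps36 had 0 counts in all libraries. On metformin these were Mrpl52, Mrpl42 (0.24 ± 0.09; edgeR adjusted p = 0.103) and the small-subunit gene Mrps18b (0.29 ± 0.12). Mrpl42 had 30.2, 27.4 and 28.5 CPM in Metformin PM libraries, against 24.9, 23.7 and 24.5 CPM in Metformin PBS libraries, with no overlap.

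Metformin was compared with vehicle within each instillate to see whether the drug itself moved the set. After PBS no member was called by edgeR, DESeq2 or limma-voom (0 of 76 each), beside 3.07% of all genes tested by edgeR, and at an unadjusted p under 0.05 edgeR had 1 higher and 5 lower (7.89% beside 17.8% of all genes). The median log2 fold change was −0.05, beside 0.00 over all genes, with 27 members above and 49 below 0. After PM no member was called by edgeR, DESeq2 or limma-voom (0 of 76 each), beside 6.89% of all genes, and 2 higher and 3 lower had an unadjusted p under 0.05 (6.58% beside 20.3%). The median was −0.06, beside 0.00 over all genes, with 24 above and 52 below 0. The groups did not overlap for 2 members that lay higher and 5 that lay lower on metformin after PBS, beside 6.2% and 7.54% of all genes. After PM these were 3 and 5 members, beside 13.4% and 13.1% of all genes.

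The lowest p after PBS was that of Mrpl45, whose values are given above (−0.37 ± 0.10; edgeR adjusted p = 0.0501). It was on the other side of the threshold with upper-quartile scaling (adjusted p = 0.0414), with a stricter filter (adjusted p = 0.0494) and without Vehicle PBS replicate 3 (adjusted p = 0.0253). Mrpl2, a core protein of the large subunit close to the peptidyl transferase centre, had 25.7, 25.3 and 25.4 CPM in Metformin PBS libraries, against 32.8, 32.7, 31.3 and 26.8 CPM in Vehicle PBS libraries. The difference of −0.28 ± 0.09 was not called (edgeR adjusted p = 0.111). Mrpl51 (−0.19 ± 0.07), Mrps10 (−0.31 ± 0.13) and Mrpl39 (−0.29 ± 0.13) came next, and the first 2 of these did not overlap between the groups.

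Metformin PBS libraries also stood apart in genes of dividing cells. The markers Mki67, Top2a, Cdk1 and Ccnb1 summed to 259 to 277 CPM in Metformin PBS, against 331 to 588 CPM in Vehicle PBS libraries, and all 4 were called lower. They were 404 to 468 CPM in Metformin PM libraries, where all 4 were called higher than in Metformin PBS, and 498 to 519 CPM in Vehicle PM libraries. Of the 4, only Ccnb1 lost its call in other settings, 7 of 22 for PM on metformin and 4 of 22 for metformin after PBS. The part of cell division in the low Metformin PBS values of Mrpl45, Mrpl42 and Mrps10 was not tested.

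The lowest p after PM was that of Mrps6, a small-subunit protein with a bacterial counterpart (ENSMUSG00000039680; GRCm38 chromosome 16, 92058270 to 92112227, plus strand). It had 39.97, 37.7 and 36.9 CPM in Metformin PM libraries, against 30.1, 30.9 and 27.8 CPM in Vehicle PM libraries, with no overlap. The difference of 0.37 ± 0.11 lay just outside the threshold (SE; edgeR quasi-likelihood adjusted p = 0.0501) and passed it in 7 of 22 other settings, with adjusted p values down to 0.0079. After PBS it had 40.6, 27.4 and 39.1 CPM in Metformin PBS libraries, against 31.3, 34.0, 33.2 and 34.1 CPM in Vehicle PBS libraries, and metformin replicate 3 stood below all the others.

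Mrps6 shares its first exon with Slc5a3, the gene of the myo-inositol transporter: 159 exon bases are common, on the same strand, and the starts are 14 bases apart. Slc5a3 rose with metformin after PM, by 0.89 ± 0.17 (edgeR adjusted p = 0.00353), with 41.1, 44.3 and 32.7 CPM in Metformin PM libraries, against 23.3, 19.1 and 21.5 CPM in Vehicle PM libraries. With metformin after PBS, Slc5a3 differed by 0.51 ± 0.17 and was not called (edgeR adjusted p = 0.105). In Metformin PBS, replicate 3 was the lowest of its group for Slc5a3 as for Mrps6. In Vehicle PM, replicate 2 was the highest of its group for Mrps6 (30.9 CPM) but the lowest for Slc5a3 (19.1 CPM). The window of Mrps6 (GRCm38.p6, chr16:92058086-92058385, plus strand) shares 286 of its bases with that of Slc5a3 and holds the NRF1 core TGCGCA 1 time, in capitals:
Mrps6: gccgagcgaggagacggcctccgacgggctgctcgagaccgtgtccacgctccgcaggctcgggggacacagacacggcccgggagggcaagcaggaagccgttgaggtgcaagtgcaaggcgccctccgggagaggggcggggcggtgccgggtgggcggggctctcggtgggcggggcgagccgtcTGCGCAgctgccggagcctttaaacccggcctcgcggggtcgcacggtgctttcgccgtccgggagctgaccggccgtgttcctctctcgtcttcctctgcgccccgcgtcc
Reads from the shared exon cannot be told apart, and the part of Slc5a3 in the value of Mrps6 was not tested.

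Other members with low p values after PM were Mrpl2 (−0.26 ± 0.10), Mrpl12 (−0.26 ± 0.10), the large-subunit gene Mrpl38 (0.20 ± 0.08) and Mrps31 (−0.32 ± 0.15), none of them called. Mrpl2 had 23.6, 27.5 and 25.99 CPM in Metformin PM libraries, against 30.9, 32.8 and 28.3 CPM in Vehicle PM libraries, again without overlap (edgeR adjusted p = 0.118). Mrpl12, the stalk protein that helps recruit translation factors and is known to bind the mitochondrial RNA polymerase, had 35.9, 38.5 and 34.4 CPM in Metformin PM libraries, against 37.4, 49.3 and 43.9 CPM in Vehicle PM libraries (edgeR adjusted p = 0.155). After PBS the values of Mrpl12 were 42.4, 35.2 and 36.8 CPM with metformin and 47.6, 37.6, 42.3 and 42.9 CPM with vehicle.

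Called neighbours were counted for the whole set, as a share of the members that have one nearby. Of the 76 members, 55 had another tested gene within 5 kb, and such a gene was called beside 1 of them for PM on vehicle, 8 for PM on metformin, 3 for metformin after PBS and 4 for metformin after PM. Over all tested genes with a neighbour within 5 kb, the shares with a called one were 4.75%, 14.3%, 3.82% and 7.09% in these comparisons.

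**Figure D3:**
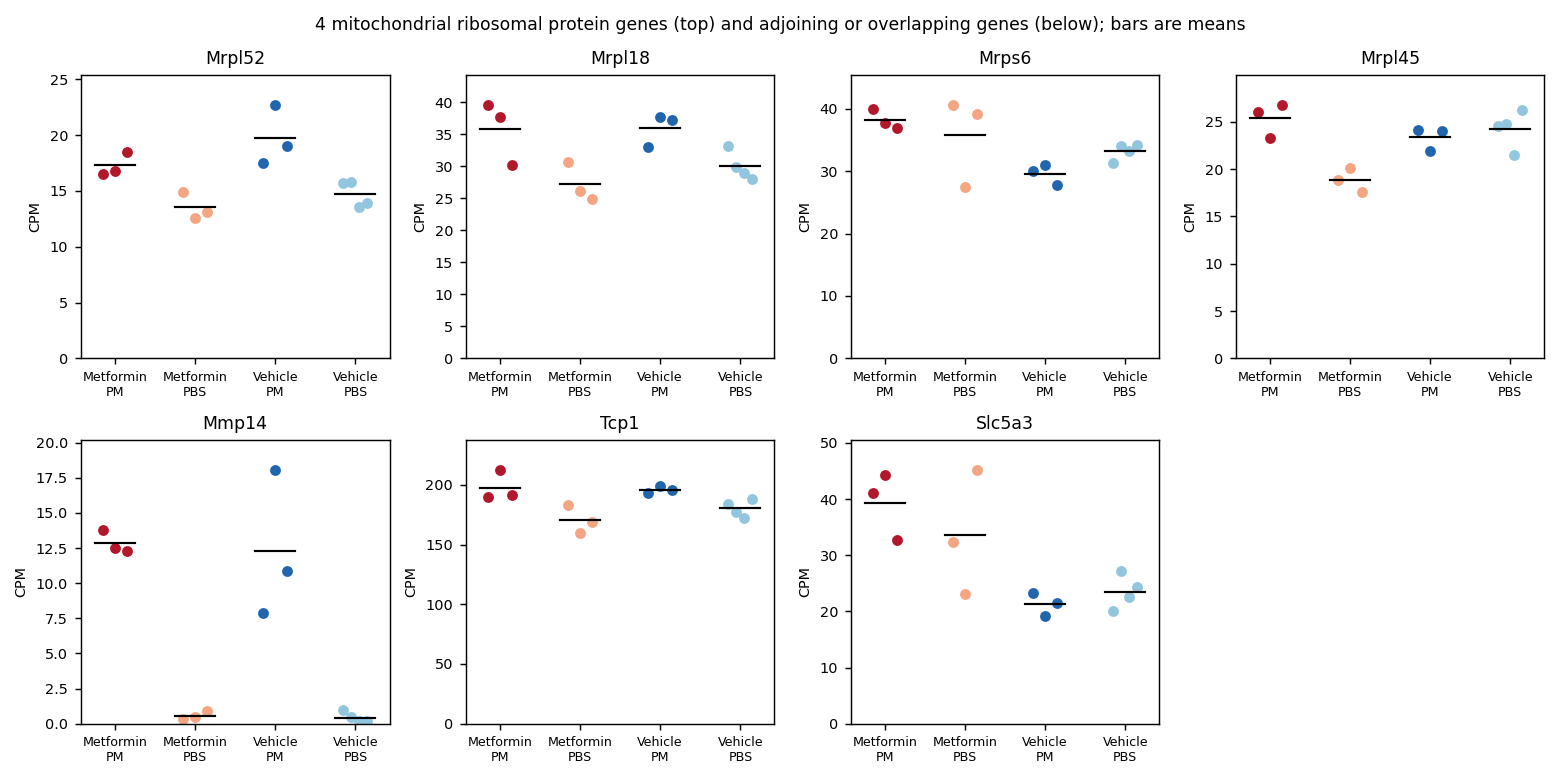
Expression (CPM, linear axis from 0) of Mrpl52, Mrpl18, Mrps6 and Mrpl45 in the top row, and of the gene next to or overlapping the first 3 of them below; points are libraries and bars are group means. Mrpl45 is low in Metformin PBS, at 17.6 to 20.1 CPM, while Mmp14 is at 7.91 to 18.0 CPM in PM and at 0.159 to 0.950 CPM in PBS libraries.

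The difference of the PM effects between metformin and vehicle was not called for any member by edgeR, DESeq2 or limma-voom (0 of 76 each), beside 1.44% of all genes tested by edgeR. At an unadjusted p under 0.05 there was 1 member, Mrpl45 (1.32% beside 11.6% of all genes). The median was −0.02 over members and 0.01 over all genes. The value next to that of Mrpl45 was Mrps18b with 0.34 ± 0.17 (edgeR adjusted p = 0.445). Comparisons that use the same libraries share their error, so the low Metformin PBS values of a gene enter both the PM effect on metformin and the metformin effect after PBS.

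The size of the differences is bounded by their intervals. In none of the 5 comparisons did a member's estimate exceed 1.5-fold. The 95% interval lay within 1.5-fold in either direction for 73 of 76 genes for PM on vehicle, 70 for PM on metformin, 76 for metformin after PBS, 74 for metformin after PM and 64 for the difference, and within 2-fold for all 76 in each. The median size of a member's log2 fold change, sign left aside, was 0.06, 0.09, 0.09, 0.09 and 0.11 in these comparisons. Among the 4724 tested genes with a mean level in the range of the members (9.58 to 51.4 CPM), it was 0.10, 0.13, 0.11, 0.12 and 0.13. Among those genes 3.43%, 10.5%, 3.34%, 5.44% and 0.974% were called.

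**Figure D4:**
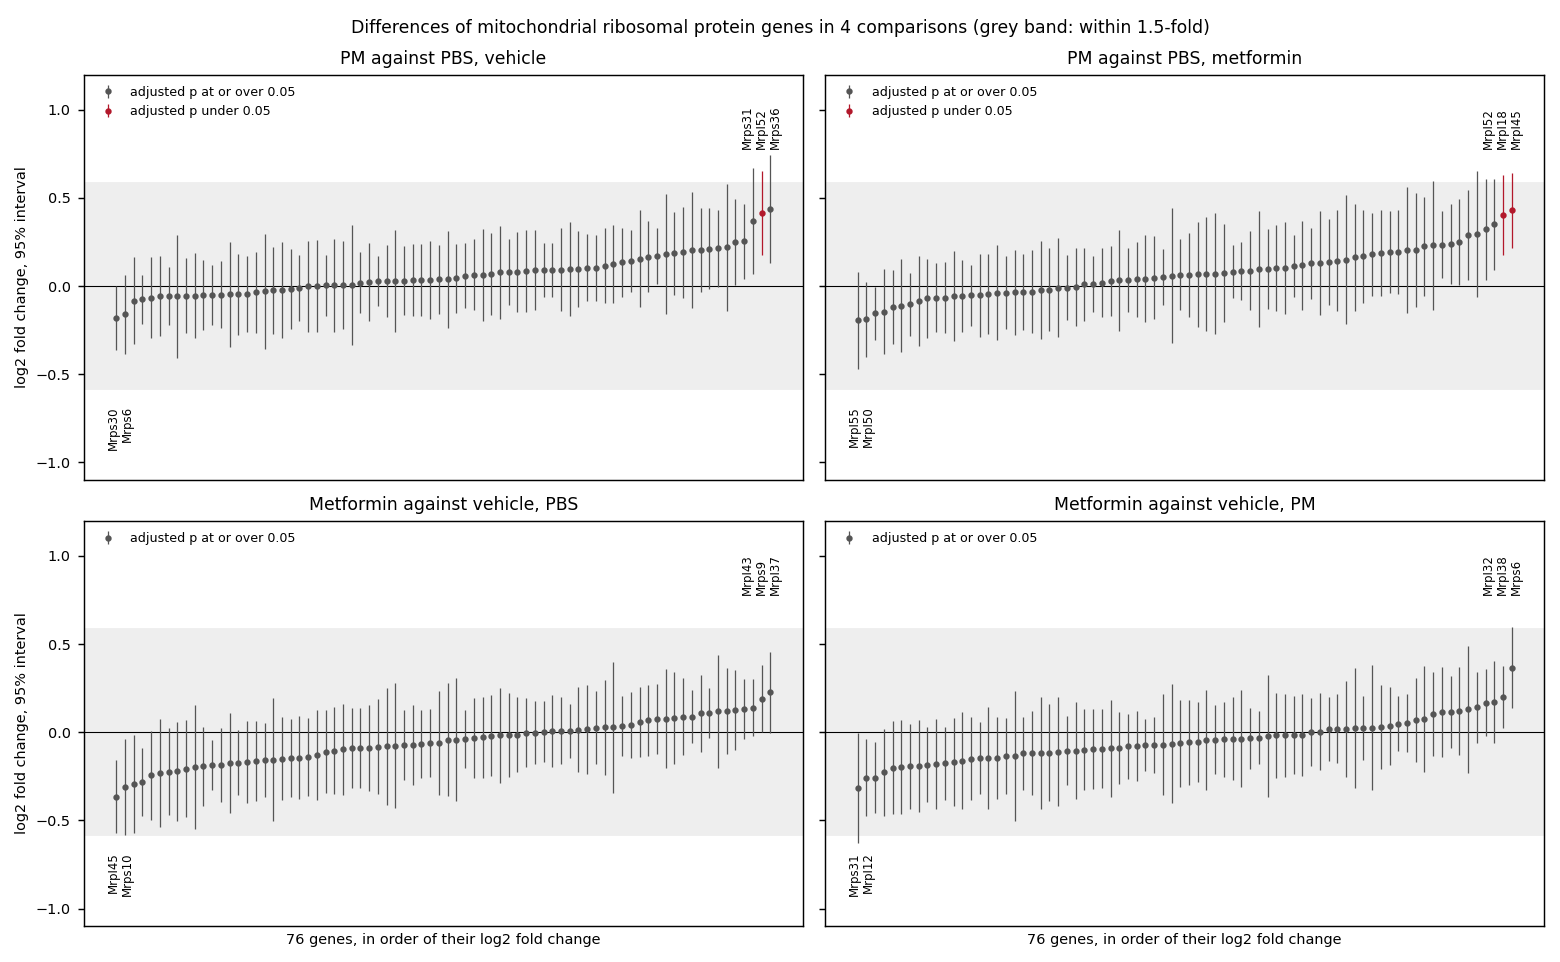
Log2 fold change and 95% interval of each of the 76 genes in the 4 simple comparisons, each panel in its own order; red marks an adjusted p under 0.05 and the grey band spans 1.5-fold in either direction. All estimates lie inside the band, and the genes called are Mrpl52 in one panel and Mrpl45 and Mrpl18 in another.

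Members with a well-known role were within this range. Mrps12, of the decoding centre, had log2 fold changes of −0.05 ± 0.14 for PM on vehicle and 0.07 ± 0.16 for PM on metformin, and of −0.23 ± 0.15 and −0.12 ± 0.15 for metformin after PBS and after PM. Mrpl11, at the base of the stalk, had 0.17 ± 0.10, 0.04 ± 0.10, 0.01 ± 0.10 and −0.12 ± 0.10 in the same order. Mrps30, in the large subunit, had −0.18 ± 0.09, −0.01 ± 0.09, 0.00 ± 0.09 and 0.17 ± 0.09, and was lower in each Vehicle PM library (22.6 to 24.3 CPM) than in the 10 others, as 1.33% of all genes were. Mrpl58, a peptidyl-tRNA hydrolase that rescues stalled ribosomes, had 0.09 ± 0.11, −0.05 ± 0.11, 0.13 ± 0.11 and −0.02 ± 0.11. Mrpl44, related to RNase III enzymes, had 0.08 ± 0.11, 0.06 ± 0.11, −0.02 ± 0.11 and −0.04 ± 0.11, and the small-subunit gene Mrps5 0.04 ± 0.10, 0.09 ± 0.11, −0.19 ± 0.10 and −0.13 ± 0.10. None of these was called.

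The paralogues Mrps18a, Mrps18b and Mrps18c descend from 1 bacterial protein and occupy different places in the ribosome. For metformin after PM their log2 fold changes were −0.15 ± 0.14 for Mrps18a, 0.12 ± 0.12 for Mrps18b and −0.23 ± 0.12 for Mrps18c, none of them called. Mrps18c had 21.1, 20.5 and 19.3 CPM in Metformin PM libraries, against 21.9, 26.1 and 23.6 CPM in Vehicle PM libraries, with no overlap.

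In all, 31 members have exons that overlap a second counted gene, so their counts are less certain. Among them, Mrpl46 and Mrps11 are transcribed away from each other, with 173 exon bases in common on opposite strands, and neither was called in any comparison. Mrpl43 overlaps Twnk, the gene of the mitochondrial helicase, by 358 bases on the opposite strand. Mrpl43 had 40.3, 44.1 and 46.4 CPM in Metformin PM, 43.2, 39.0 and 40.8 CPM in Metformin PBS, 38.6, 43.9 and 43.6 CPM in Vehicle PM, and 38.1, 35.9, 36.8 and 38.1 CPM in Vehicle PBS libraries. The 4 Vehicle PBS libraries were below the 9 others, as in 0.857% of all genes tested. Among the 46 tested members with no such overlap, the called genes were Mrpl52 for PM on vehicle and Mrpl45 for PM on metformin.

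Other genes of mitochondrial translation were counted on lists chosen, like the members, with earlier results of these data known. Over all genes tested, 3.07 to 12.8% were called in the 4 simple comparisons and 1.44% in the test of the difference, so few or no calls on lists of this size are not a result about them. None of 5 further ribosomal proteins with other symbols (such as Dap3), of 16 translation factors and of 20 aminoacyl-tRNA synthetases and related enzymes was called in any of the 5 comparisons (0 each by edgeR, DESeq2 and limma-voom). At an unadjusted p under 0.05 edgeR had 0, up to 3 and up to 3 of them in a comparison, beside 11.6 to 26.0% of all genes. Of 23 assembly factors, Mrm1, a methyltransferase of the ribosomal RNA, was higher with metformin after PM (0.46 ± 0.13; edgeR adjusted p = 0.0432), a call lost in 9 of 22 other settings, DESeq2 and 7 left-out libraries among them. Of the 12 tested mRNAs encoded in mitochondria, which this ribosome translates, 7 rose with PM on metformin, among them mt-Cytb (0.27 ± 0.05), mt-Nd1 (0.23 ± 0.05) and mt-Atp8 (0.41 ± 0.09). The count was 4 without Metformin PM replicate 3 or Metformin PBS replicate 1. On vehicle none of the 12 was called with PM (0 by edgeR, DESeq2 and limma-voom, 4 at an unadjusted p under 0.05), with a median of 0.13 beside 0.19 on metformin. The test of the difference called none (0 by each tool, 3 unadjusted). With metformin after PBS mt-Nd4 was lower (−0.19 ± 0.05; edgeR adjusted p = 0.0483), a call lost in 17 of 22 other settings.

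Of 17 listed regulators of mitochondrial biogenesis 16 were tested, and Ppargc1a had 0 counts in all libraries. Over all genes tested, 4.85% were called with PM on vehicle, 12.8% with PM on metformin and 6.89% with metformin after PM. Among the 16 regulators, Myc rose with PM on vehicle (0.82 ± 0.15) and the nuclear receptor gene Esrrg fell (−1.35 ± 0.20). With PM on metformin, Esrrg (−0.93 ± 0.23), Esrra (−0.29 ± 0.07) and the coactivator gene Ppargc1b (−0.86 ± 0.17) fell, the call of Esrrg being lost without Metformin PBS replicate 4. With metformin after PM, Ppargc1b (−0.80 ± 0.17) and Esrra (−0.27 ± 0.07) fell, the call of Esrra being lost in 5 of 22 other settings, 4 of them left-out libraries. The genes of the factors NRF1, GABP and YY1 were called in no comparison. Of 82 tested cytosolic ribosomal proteins, 10 rose and 0 fell with PM on vehicle (median 0.13). On metformin 8 rose and 0 fell (median 0.12). Beside this, 2.6% of all genes tested were called higher with PM on vehicle and 7.18% on metformin. With 1 library left out the counts of these proteins ranged between 0 and 14 on vehicle and between 0 and 23 on metformin. They were 0 without Vehicle PM replicate 2 for the first, and 0 without Metformin PM replicate 3 or Metformin PBS replicate 3 for the second.

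The promoter windows of the set share short sequences. RefSeq windows were found for 68 of the 77 genes, 74 windows in all, and both strands were searched. The ETS core CGGAAG stood in 52.7% of them and in 16.9% of 32851 windows of all genes. The NRF1 core TGCGCA stood in 29.7% and 7.76%, and the YY1 core ATGGCGG in 17.6% and 4.05%. At least 1 of the 3 stood in 70.3% of the windows of the set and in 24.5% of all windows. The windows of all genes were not limited to genes tested here, so these shares do not compare the set with other expressed genes. A match of these letters describes the sequence and shows no binding.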

How the data were processed

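Polyadenylated RNA of sorted cells was sequenced by the authors from a kit that keeps no strand. Per the submitters' processing notes, bcl2fastq 2.19, TopHat2, HTSeq, edgeR and the build mm10 were used. The strand setting and annotation release are not given in the sources used here. The deposited table holds raw read counts per gene, and gene coordinates and lengths (other values, per the file headers). Counts were analysed as deposited with R 4.3.3 and edgeR 4.0.16: filterByExpr, TMM scaling, 1 coefficient per group, quasi-likelihood test, Benjamini-Hochberg adjustment within each comparison. Of the gene IDs, 42462 had a symbol. Exons and transcript lengths came from GENCODE M21 (GRCm38), promoters from RefSeq (GRCm38.p6). CPM are scaled counts, and intervals cover 95%. Alternatives were DESeq2 1.42.0, limma-voom 3.58.1, other scalings and filters, only the groups compared, a block for the replicate number, and 1 library left out at a time. Deviations from the group mean, over all genes, had r of −0.10 to 0.12 between same-numbered libraries of different groups. Between libraries with different numbers r was −0.14 to 0.14. Such a correlation over all genes cannot exclude that the numbers pair the samples for some genes. In data simulated for PM on vehicle, edgeR called 14 of 50 genes given a 1.25-fold change, 35 of 49 given 1.5-fold and 43 of 50 given 2-fold. The text names the called members and the 5 with the lowest p per comparison, the 5 highest and 5 lowest by level, and members with known roles or overlapping genes. Mrps10, Mrpl40, Mrpl46 and Mrps11 were singled out after their values were seen where the rule did not name them. Members and lists were chosen with earlier results of these data known.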

Additional observations from a re-analysis of the deposited data

How the results depend on the processing

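With 76 members and at most 2 called, single calls move the counts. For PM on vehicle the count of called members was 2 with no filter and 0 with DESeq2, with only the groups compared and with the replicate number as a block, and 0 to 1 when a library was left out. For PM on metformin it was 1 among members with no overlapping gene (chosen after seeing the data) and 0 to 4 when a library was left out, with 4 without Metformin PBS replicate 1 and 0 without Metformin PBS replicate 4. For metformin after PBS it was 1 with upper-quartile scaling and with a filter of 5 CPM in 3 libraries, and 0 to 1 leaving out a library. For metformin after PM it was 1 with no scaling beyond the library total, no filter, the filter of 5 CPM and only the groups compared, and 0 to 1 leaving out a library. The cause was not tested. The replicate block, under which Mrpl52 had an adjusted p of 0.0652, changed no other count of members. Outside the members it ended the calls of Mrm1 and Esrra with metformin after PM and of mt-Nd4 with metformin after PBS, and left 3 cytosolic ribosomal proteins called higher with PM on vehicle instead of 10 and 7 with PM on metformin instead of 8. The median over members kept its sign in every setting for PM on vehicle (0.022 to 0.07), PM on metformin (0.021 to 0.07) and metformin after PM (−0.102 to −0.029). It did not for metformin after PBS (−0.073 to 0.003, the highest without Vehicle PBS replicate 1) or the difference (−0.066 without Vehicle PM replicate 1 to 0.029 without replicate 2). Among the named members 518 of 545 values under other settings stayed on their side of the threshold, and 0 changed sign. In data simulated for PM on vehicle over 11707 genes of all levels, 14 of the 50 genes given the smallest change tried were called; the share at the members' own depth of 38 to 466 counts was not measured.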
